A study of Homo sapiens with 9 samples.

Results

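The genes described here are the transcription coactivators YAP1 and TAZ (gene WWTR1), the DNA-binding partners TEAD1 and TEAD4, and a set of genes that regulate or respond to them, CCN1, CCN2, AMOTL1, AMOTL2, LATS2 and AJUBA. These 10 genes were chosen by name from knowledge of the pathway, with earlier results of these data already known. Of the 10, 9 were among the 11350 genes of the counts table, and CCN2 was not analysed here.

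The study asked what loss of the catalytic activity of the ubiquitin ligase HUWE1 does in HCT116, a human colorectal carcinoma cell line. HUWE1-P denotes the unedited parental cells. In HUWE1-CS and HUWE1-WT cells, the catalytic cysteine of the endogenous HECT domain was exchanged by CRISPR for a serine or, as a control, for a cysteine, and both edited lines carry the same P2A and blasticidin resistance sequence after HUWE1 and were grown from single cell clones selected with puromycin and blasticidin. No line received a further treatment, and poly(A) RNA was sequenced in 3 libraries of each. Which clones the libraries came from is not given in the sources used here, so the edit and the clone cannot be told apart in a difference between lines. The study calls the 3 libraries of a line biological replicates. The p-values measure only the spread between these libraries, which may not include a spread between clones. For each gene, the fit drew this spread mostly from the trend over all genes, and less from the libraries of that gene alone.

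The Hippo pathway is a kinase cascade that restrains YAP1 and TAZ. The kinases LATS1 and LATS2 phosphorylate both coactivators, which are then held in the cytoplasm or degraded. Unphosphorylated YAP1 and TAZ enter the nucleus and bind TEAD proteins, which recognize the sequence GGAATG, and the TEAD complexes activate genes such as CCN1, CCN2 and AMOTL2. Several of the induced genes, AMOTL2 and LATS2 among them, encode inhibitors of the coactivators. In the intestinal epithelium YAP1 is known for its part in regeneration and tumour growth.

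Promoter windows from RefSeq (GRCh38.p14, 250 bases before to 50 bases after a transcript start) were at hand for 6 of the 9 measured genes, YAP1, WWTR1, AMOTL1, AMOTL2, LATS2 and AJUBA, and not for CCN1, TEAD1 and TEAD4. The TEAD core GGAATG was found, on either strand, in windows of 4 of the 6 genes, and in 4 of their 9 windows. Of all 35116 windows of this length, 14% held it, as did 16.7% of the genes. To show how the cores lie, 30 bases around each are printed here on the strand of the gene, with the core in capitals. In AMOTL2 the core is on the opposite strand and reads CATTCC. The stretches lie at chr11:102110273-102110302 (plus strand) for YAP1, and on the minus strand at chr3:134374499-134374528 for AMOTL2, chr13:21061560-21061589 for LATS2 and chr14:22976884-22976913 for AJUBA.
YAP1: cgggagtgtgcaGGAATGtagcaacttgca
AMOTL2: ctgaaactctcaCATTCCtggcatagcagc
LATS2: cgtgacgcccgtGGAATGccaacaatgtag
AJUBA: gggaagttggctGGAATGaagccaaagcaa
Relative to the start of the window that holds it, the first core base lies 162 bases before in YAP1, 69 before in AMOTL2 and 59 before in AJUBA. In LATS2 it lies 9 bases after. AMOTL2 and AJUBA each have a further window, upstream on the minus strand, with 0 matches (chr3:134375368-134375667 and chr14:22982502-22982801). Which start was used in these cells was not tested. The transcripts of YAP1 and AMOTL2 moved in opposite directions in HUWE1-CS cells (values further on). For both, the 250 bases before the start of the window with the core are given in full. They lie at chr11:102110197-102110446 on the plus strand and chr3:134374448-134374697 on the minus strand.
YAP1: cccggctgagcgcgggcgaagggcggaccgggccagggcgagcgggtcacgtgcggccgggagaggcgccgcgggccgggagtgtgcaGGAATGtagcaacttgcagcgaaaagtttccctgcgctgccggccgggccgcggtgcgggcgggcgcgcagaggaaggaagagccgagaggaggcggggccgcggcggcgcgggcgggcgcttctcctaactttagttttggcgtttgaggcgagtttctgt
AMOTL2: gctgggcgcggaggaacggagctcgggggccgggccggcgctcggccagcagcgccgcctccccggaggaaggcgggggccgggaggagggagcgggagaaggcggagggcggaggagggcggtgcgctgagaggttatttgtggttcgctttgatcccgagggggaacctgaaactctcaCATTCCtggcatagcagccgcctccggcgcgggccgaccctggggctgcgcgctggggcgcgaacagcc
The AP-1 sequence, searched as TGACTCA and TGAGTCA on both strands, was found in 0 of these 6 genes' windows and in 4.95% of all windows. A match here is a match of letters in a window, and binding was not measured in these data.

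The libraries held 1610984 to 2060349 counts each, and a single gene of the set had 12 to 386 counts per library. Values are CPM (read counts scaled to a library of fixed size), normalized by the trimmed mean of M values (TMM), on which scale 3 counts correspond to 1.45 to 1.86 CPM. HUWE1 itself reached 561, 545 and 522 CPM in HUWE1-P, 498, 453 and 455 CPM in HUWE1-WT and 345, 323 and 339 CPM in HUWE1-CS libraries, so that the 3 lines did not overlap. Its log2 fold change in HUWE1-CS was -0.69 against HUWE1-P (adjusted p = 1.06e-15) and -0.48 against HUWE1-WT (adjusted p = 4.68e-09), that of HUWE1-WT against HUWE1-P was -0.21 and did not pass (adjusted p = 0.354), and counts per gene cannot show the exchanged codon. Of the colon epithelial markers, 6 of 10 were analysed, with a summed level of 4115 to 4240 CPM in HUWE1-P, 4137 to 4533 CPM in HUWE1-WT and 3670 to 4044 CPM in HUWE1-CS. Of 13 markers of blood, endothelial and mesenchymal cells, COL1A1 and ACTA2 were analysed, with a summed level of 19.9 to 28.1, 23.4 to 29.7 and 16.3 to 23.7 CPM. The sum joins genes that moved in opposite directions. The means in HUWE1-P, HUWE1-WT and HUWE1-CS were 22.2, 21.1 and 11.4 CPM for COL1A1 and 1.97, 4.72 and 8.32 CPM for ACTA2. The part of these markers in the results was not tested. In bulk RNA, fewer cells expressing a gene and less RNA per cell cannot be told apart.

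In HUWE1-CS cells the YAP1 transcript was higher and those of CCN1 and AMOTL2 were lower than in either control line. Against HUWE1-P, 4 of the 9 genes passed the threshold of a false discovery rate (FDR) of 0.01 in edgeR's quasi-likelihood test, where 17.0% of all 11350 genes did. YAP1 was the only one of these 4 to rise (8.46% of all genes rose), and CCN1, AMOTL2 and TEAD1 fell (8.58% of all genes fell). Against HUWE1-WT, YAP1 rose and CCN1 and AMOTL2 fell, 3 of 9 genes, beside 15.5% of all genes called, 7.42% higher and 8.08% lower. These 3 genes were called in the same direction in both comparisons, which share the HUWE1-CS libraries, as were 12.2% of all genes. Between HUWE1-WT and HUWE1-P, 0 of the 9 genes passed (0.0617% of all genes did, 0.0529% lower and 0.00881% higher), and 0 had an unadjusted p under 0.05, where 629 of all 11350 genes did. DESeq2 also called 0 of the 9. The median log2 fold change of the 9 genes was -0.37 against HUWE1-P and -0.26 against HUWE1-WT, beside -0.01 and -0.00 over all genes.

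**Figure D1:**
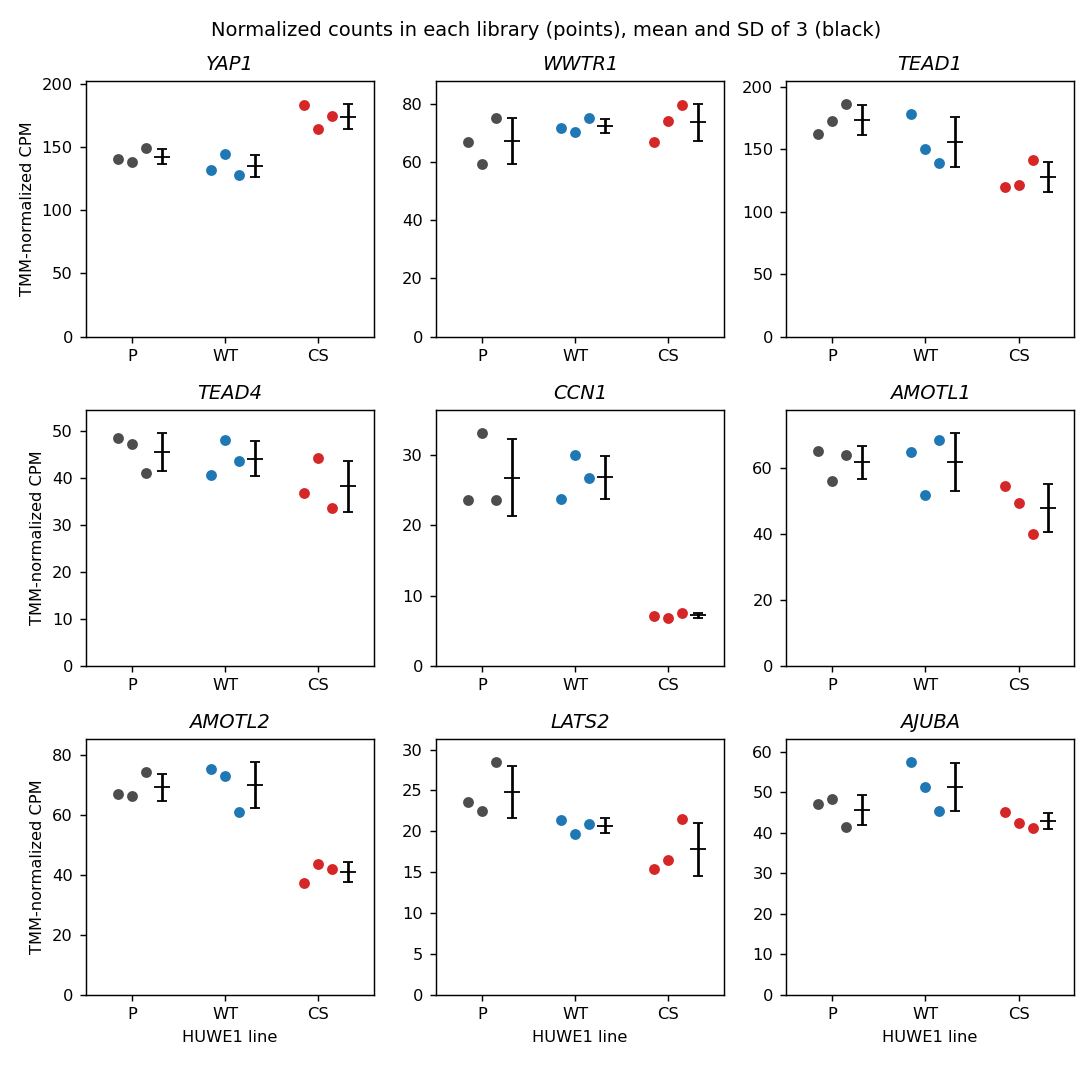
TMM-normalized CPM (vertical axis, from 0) of the 9 measured genes in each of the 9 libraries, coloured by line, with the mean and SD of 3 libraries in black. The HUWE1-CS libraries of CCN1 lie at 6.81 to 7.55 CPM, under all 6 control libraries, those of AMOTL2 also lie under, and those of YAP1 over, all 6.

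Of the coactivators, YAP1 was measured at 140, 138 and 149 CPM in HUWE1-P, 132, 145 and 128 CPM in HUWE1-WT and 183, 164 and 175 CPM in HUWE1-CS libraries. The 3 HUWE1-CS libraries were all above the 6 controls, while the control lines overlapped each other. YAP1 was 1.22-fold higher than in HUWE1-P (log2 fold change 0.29 ± 0.0834 SE, adjusted p = 0.00601) and 1.29-fold higher than in HUWE1-WT (0.37 ± 0.0847, adjusted p = 4.67e-04). The increase over HUWE1-P lay close to the threshold and was not called when DESeq2 was used (adjusted p = 0.0355), when libraries were scaled by total counts (adjusted p = 0.0126), or without HUWE1-CS replicate 1 (adjusted p = 0.0467) or 3 (0.0135) or HUWE1-P replicate 1 (0.0265) or 2 (0.0313). The increase over HUWE1-WT kept an FDR of at most 0.01 in every fit tried, with an adjusted p of up to 0.00866.

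WWTR1, which encodes TAZ, did not follow YAP1 past the threshold. It was measured at 67.0, 59.5 and 75.2 CPM in HUWE1-P, 71.8, 70.3 and 75.0 CPM in HUWE1-WT and 67.1, 74.3 and 79.5 CPM in HUWE1-CS. All 3 lines overlapped. The log2 fold change was 0.12 against HUWE1-P (95% interval -0.11 to 0.36, adjusted p = 0.472) and 0.03 against HUWE1-WT (-0.20 to 0.26, adjusted p = 0.908). Within a library, YAP1 counts were 1.98 to 2.32 times WWTR1 counts in HUWE1-P, 1.71 to 2.05 times in HUWE1-WT and 2.20 to 2.73 times in HUWE1-CS. The ranges of HUWE1-CS and HUWE1-P overlapped, and that of HUWE1-CS lay above that of HUWE1-WT.

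TEAD1, a DNA-binding partner of both coactivators, was measured at 162, 173 and 186 CPM in HUWE1-P, 178, 151 and 139 CPM in HUWE1-WT and 120, 121 and 142 CPM in HUWE1-CS. All HUWE1-CS libraries were below those of HUWE1-P, and 1 lay within the range of HUWE1-WT. TEAD1 fell against HUWE1-P (log2 fold change -0.45 ± 0.0885, adjusted p = 3.13e-05). Against HUWE1-WT, the value was -0.29 ± 0.0906 with an adjusted p of 0.0126, just outside the threshold. It passed there with total counts (adjusted p = 0.00630), with a robust fit (0.00902), and without HUWE1-CS replicate 3 (0.00474) or HUWE1-WT replicate 3 (0.00506). The HUWE1-WT level was also below that of HUWE1-P by a log2 fold change of -0.16, which did not pass (adjusted p = 0.907).

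TEAD4 encodes another member of the family. It was measured at 48.4, 47.1 and 41.0 CPM in HUWE1-P, 40.6, 48.0 and 43.6 CPM in HUWE1-WT and 36.8, 44.2 and 33.7 CPM in HUWE1-CS. The lines overlapped. The log2 fold change was -0.24 against HUWE1-P (95% interval -0.53 to 0.05, adjusted p = 0.240) and -0.20 against HUWE1-WT (-0.50 to 0.09, adjusted p = 0.344).

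The other TEAD genes were examined beside these. TEAD2 was measured at 25.4, 33.7 and 28.4 CPM in HUWE1-P, 29.0, 33.8 and 27.9 CPM in HUWE1-WT and 14.2, 11.3 and 19.2 CPM in HUWE1-CS. Its HUWE1-CS libraries were all below the 6 controls. TEAD2 fell by 0.97 on the log2 scale against HUWE1-P (adjusted p = 1.07e-04) and by 1.02 against HUWE1-WT (adjusted p = 4.95e-05). TEAD3 had log2 fold changes of -0.00 (adjusted p = 0.992, a value whose sign changed with the scaling) and 0.39 (adjusted p = 0.0854). Per kb of transcript, TEAD4 was the most abundant of the 4 in each line, with a mean of 26.6, 25.8 and 22.4 CPM per kb in HUWE1-P, HUWE1-WT and HUWE1-CS. TEAD2 made up 19.0% ± 1.97 (SD, n = 3) of the summed TEAD level per kb in HUWE1-P, 21.2% ± 1.57 in HUWE1-WT and 12.6% ± 3.46 in HUWE1-CS. The corresponding share of TEAD1 was 26.2%, 25.3% and 24.8%, which differed by less than its SD of 2.34 to 3.47 percentage points. That of TEAD3 was 17.1%, 14.1% and 21.8%. Its HUWE1-CS libraries, at 19.9% to 24.2%, lay above all control libraries, which reached 17.3%. The share of TEAD4 was 37.7%, 39.3% and 40.8%, with ranges that overlapped.

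**Figure D2:**
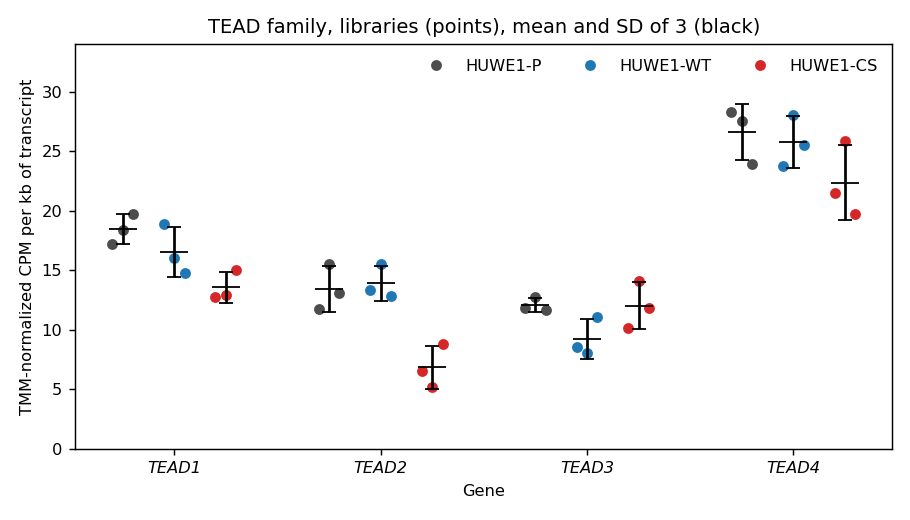
TMM-normalized CPM per kb of transcript (vertical axis, from 0) of TEAD1, TEAD2, TEAD3 and TEAD4 in each library, coloured by line, with the mean and SD of 3 libraries in black. TEAD2 lies at 5.21 to 8.81 CPM per kb in HUWE1-CS and at 11.7 to 15.5 in the 6 control libraries, and TEAD4 is the most abundant by this measure in each line.

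CCN1 encodes a secreted matrix-associated protein and is among the best known targets of the YAP-TEAD complex. It was measured at 23.6, 33.1 and 23.6 CPM in HUWE1-P and 23.8, 30.0 and 26.7 CPM in HUWE1-WT, against 7.12, 6.81 and 7.55 CPM in HUWE1-CS. The counts behind these values were 38, 59 and 49, then 41, 55 and 46, and 12, 12 and 13 in HUWE1-CS. All HUWE1-CS libraries lay far below every control library, while the control lines overlapped. CCN1 fell to 27.0% of the HUWE1-P level (log2 fold change -1.89, 95% interval -2.38 to -1.40, adjusted p = 1.15e-09) and by 1.90 on the log2 scale against HUWE1-WT (adjusted p = 1.24e-09). Of all 11350 genes, 0.344% had a lower log2 fold change against HUWE1-P and 0.317% against HUWE1-WT. Its mean in HUWE1-WT, 26.8 CPM ± 3.12 (SD, n = 3), differed from that in HUWE1-P, 26.8 ± 5.49, by less than the SD. For each 100 YAP1 counts a library held 15.9 to 24.0 CCN1 counts in HUWE1-P, 18.0 to 20.9 in HUWE1-WT and 3.88 to 4.32 in HUWE1-CS.

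AMOTL2 and AMOTL1 encode angiomotin-like scaffolds that bind YAP1 at cell junctions. AMOTL2 was measured at 67.0, 66.2 and 74.2 CPM in HUWE1-P, 75.3, 73.1 and 61.1 CPM in HUWE1-WT and 37.4, 43.7 and 41.8 CPM in HUWE1-CS. Its HUWE1-CS libraries were all below the 6 controls. AMOTL2 fell to 59.1% of the HUWE1-P level (log2 fold change -0.76 ± 0.132, adjusted p = 2.33e-06) and by 0.77 on the log2 scale against HUWE1-WT (adjusted p = 2.21e-06).

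AMOTL1 did not pass the threshold in either comparison. Its values were 65.2, 56.1 and 64.1 CPM in HUWE1-P, 64.9, 51.8 and 68.6 CPM in HUWE1-WT and 54.6, 49.3 and 40.1 CPM in HUWE1-CS. The HUWE1-CS libraries were below those of HUWE1-P and overlapped those of HUWE1-WT. The log2 fold change was -0.37 ± 0.133 against HUWE1-P (adjusted p = 0.0320) and -0.36 ± 0.134 against HUWE1-WT (adjusted p = 0.0386). A library held 1.03 to 1.18 AMOTL2 counts per AMOTL1 count in HUWE1-P, 0.890 to 1.41 in HUWE1-WT and 0.685 to 1.04 in HUWE1-CS, ranges that overlapped.

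LATS2, the Hippo kinase, had few counts, 26 to 59 per library. It was measured at 23.6, 22.5 and 28.4 CPM in HUWE1-P, 21.4, 19.6 and 20.9 CPM in HUWE1-WT and 15.4, 16.4 and 21.5 CPM in HUWE1-CS. The HUWE1-CS libraries lay below those of HUWE1-P, and 1 of them was above all HUWE1-WT libraries. The log2 fold change was -0.49 ± 0.203 against HUWE1-P (adjusted p = 0.0631) and -0.21 ± 0.213 against HUWE1-WT (adjusted p = 0.509). AJUBA, a LIM protein that binds LATS kinases, ranged from 41.4 to 48.3 CPM in HUWE1-P, 45.4 to 57.4 CPM in HUWE1-WT and 41.2 to 45.1 CPM in HUWE1-CS. Its log2 fold change was -0.08 (95% interval -0.36 to 0.20, adjusted p = 0.735) against HUWE1-P and -0.26 (-0.54 to 0.02, adjusted p = 0.180) against HUWE1-WT.

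**Figure D3:**
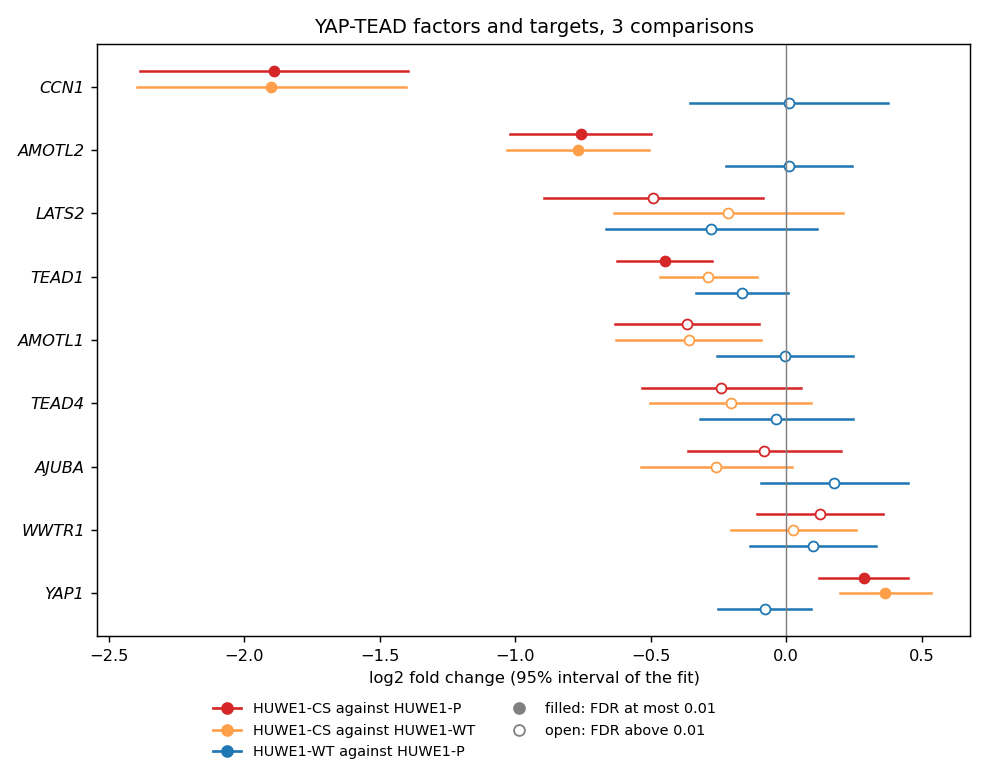
Log2 fold changes (horizontal axis) of the 9 genes in 3 comparisons, with the 95% interval of the fit as a line, filled where the FDR is at most 0.01 and open otherwise. CCN1 lies near -1.9 and AMOTL2 near -0.8 in both HUWE1-CS comparisons, YAP1 lies above 0 in both, and HUWE1-WT against HUWE1-P has no filled point.

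Across the set, the HUWE1-CS libraries were below all 6 control libraries for 2 genes (13.4% of all genes), above them for 1 gene (12.9% of all genes) and overlapping for 6. In HUWE1-P, the mean levels per kb ran from 26.6 and 26.4 CPM per kb for TEAD4 and YAP1, which differed by less than the SD of TEAD4 (2.33), through 18.4 for TEAD1, 14.2 for AMOTL2, 13.3 for WWTR1, 11.8 for CCN1, 10.9 for AJUBA and 6.88 for AMOTL1 to 4.48 for LATS2. In HUWE1-CS the order began with YAP1 at 32.2 CPM per kb, followed by TEAD4 at 22.4, and ended with LATS2 at 3.21 and CCN1 at 3.14, which differed by less than their spread.

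The genes are spread over the genome (GRCh37). YAP1 (chr11:101981178-102104155), TEAD1 (chr11:12695968-12966284) and AMOTL1 (chr11:94439597-94609913) share a chromosome, and AMOTL2 (chr3:134074189-134094321) and WWTR1 (chr3:149235022-149454501) share another. CCN1 is at chr1:86046444-86050272, TEAD4 at chr12:3068496-3149842, LATS2 at chr13:21547175-21635725 and AJUBA at chr14:23440386-23451760. Among the 10 nearest measured genes, 5 on each side, 0 were called against HUWE1-P around YAP1, TEAD1 and AMOTL2, where 17.0% of all genes were called. Around CCN1, 1 was called and 0 in the direction of CCN1, and around WWTR1, 4 were called. There was 1 each around TEAD4, AMOTL1 and AJUBA, and there were 2 around LATS2. With so few neighbours, these counts cannot be told apart from the share of all genes. Exon bases shared with annotated genes of the opposite strand numbered 639 for YAP1, 756 for WWTR1 and 496 for AMOTL1, and 0 for the other 6. As the use of strand in counting is not given in the sources used here, reads from the opposite strand cannot be told apart from those of these 3 genes.

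Of the other kinases and scaffolds of the Hippo pathway, 18 were measured. NF2 and TAOK2 fell in both comparisons, and the remaining 16 did not pass (11.1% called, beside 17.0% and 15.5% of all genes). NF2, the membrane-linked scaffold Merlin, was measured at 124, 126 and 109 CPM in HUWE1-P, 114, 123 and 133 CPM in HUWE1-WT and 93.8, 73.7 and 61.5 CPM in HUWE1-CS. Its HUWE1-CS libraries were all below the 6 controls, while the control lines overlapped. Its log2 fold change was -0.64 against HUWE1-P (adjusted p = 1.03e-06) and -0.69 against HUWE1-WT (adjusted p = 1.76e-07). TAOK2, a kinase upstream in the cascade, had values of -0.67 (adjusted p = 3.43e-06) and -0.67 (adjusted p = 5.53e-06). LATS1 had values of 0.01 (adjusted p = 0.987, with a sign that changed under total counts) and 0.17 (adjusted p = 0.553).

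Of 19 listed junction, polarity and LIM regulators, 17 were measured, and FAT4 and DCHS1 were not analysed here. In each comparison 2 of the 17 were called (11.8%, beside 17.0% and 15.5% of all genes). FAT1, a large atypical cadherin, and TJP1, a tight junction scaffold, fell against HUWE1-P, by 0.69 (adjusted p = 8.63e-15) and 0.39 (adjusted p = 0.00132) on the log2 scale. Against HUWE1-WT, FAT1 fell by 0.59 (adjusted p = 1.07e-11), TJP1 had a value of -0.23 (adjusted p = 0.0886), and PARD6B, a polarity scaffold named after its value was seen, rose by 0.63 (adjusted p = 0.00619). Both FAT1 calls were lost in a robust fit (adjusted p = 0.0157 and 0.0314). The TJP1 call was lost with DESeq2 (adjusted p = 0.0308), with the length trend removed (0.0128), and without HUWE1-CS replicate 2 (0.0895) or HUWE1-P replicate 3 (0.0525).

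Of 21 listed cofactors, TEAD genes and turnover factors, 19 were measured, and VGLL1 and VGLL3 were not analysed here. TEAD2 (values above) fell in both comparisons. VGLL4, a TEAD-binding repressor, had values of 0.05 (adjusted p = 0.896) and 0.08 (adjusted p = 0.848).

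A list of 27 further genes known as YAP-TEAD targets was examined, of which 18 were measured. The list was chosen with earlier results of these data known, so its shares are a description. Against HUWE1-P, 8 of the 18 fell and 2 rose (55.6% called, beside 17.0% of all genes), and the median log2 fold change was -0.32. Against HUWE1-WT, 7 fell and 1 rose (44.4%, beside 15.5% of all genes), with a median of -0.52. Between HUWE1-WT and HUWE1-P, 0 of the 18 passed. The count against HUWE1-WT was 5 with DESeq2 and 4 without HUWE1-CS replicate 2.

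AXL, a receptor tyrosine kinase, was measured at 122, 121 and 116 CPM in HUWE1-P, 108, 122 and 115 CPM in HUWE1-WT and 58.2, 53.9 and 60.4 CPM in HUWE1-CS. The HUWE1-CS libraries were all far below the 6 controls. AXL fell by 1.06 (adjusted p = 4.45e-14) against HUWE1-P and by 1.00 (adjusted p = 9.44e-13) against HUWE1-WT on the log2 scale. F3, which encodes tissue factor, fell from 39.1 to 49.6 CPM in HUWE1-P and 36.5 to 41.3 CPM in HUWE1-WT to 13.9 to 19.6 CPM in HUWE1-CS, by 1.34 (adjusted p = 1.45e-09) and 1.13 (adjusted p = 5.73e-07). ASAP1, an Arf GTPase-activating protein, fell by 1.04 (adjusted p = 1.12e-09) and 0.94 (adjusted p = 6.26e-08).

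The genes of this list that rose were AREG and GADD45A. AREG, a ligand of the EGF receptor, rose by 0.40 (adjusted p = 3.33e-04) and 0.32 (adjusted p = 0.00445). The first call was lost without HUWE1-P replicate 3 (adjusted p = 0.0169). The second was lost with DESeq2 (adjusted p = 0.0396), with the length trend removed (0.0401), and without HUWE1-CS replicate 2 (0.0586) or 3 (0.0172) or HUWE1-WT replicate 1 (0.0235) or 2 (0.0126). GADD45A, a stress-response gene, rose by 0.59 against HUWE1-P (adjusted p = 4.05e-04) and had a value of 0.31 against HUWE1-WT (adjusted p = 0.0738). The other 5 genes that fell against HUWE1-P, named after their values were seen, were MYOF, CRIM1, DOCK5, THBS1 and GLI2. Their log2 fold changes ran from -1.48 for GLI2 to -0.30 for MYOF. Against HUWE1-WT, MYOF (adjusted p = 0.0120) and GLI2 (0.0147) did not pass, and CRIM1, DOCK5 and THBS1 fell. GLI2 had a mean of 3.28 CPM in HUWE1-CS, with 1.74 CPM, the value of 3 counts, in the lowest library. TNFRSF12A, also named afterwards, fell by 0.50 against HUWE1-WT (adjusted p = 8.43e-06) and did not pass against HUWE1-P (adjusted p = 0.0281).

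**Figure D4:**
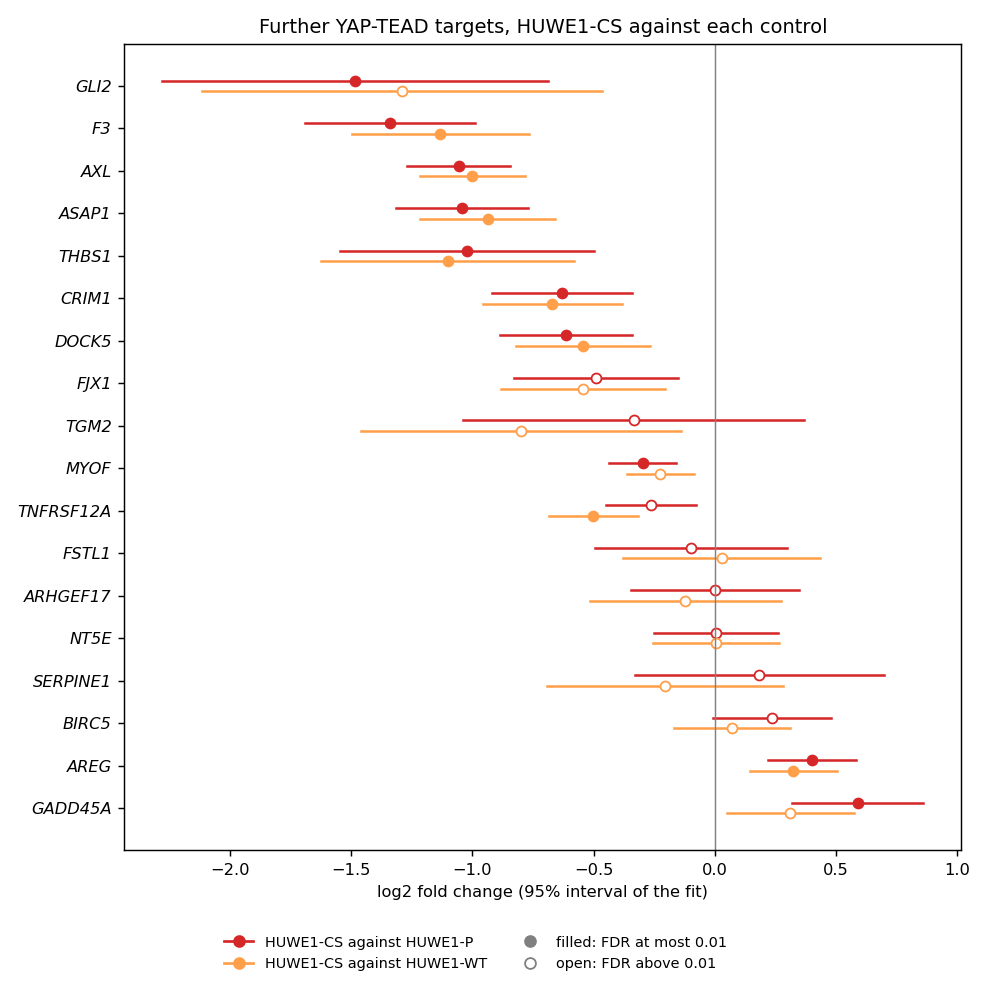
Log2 fold changes (horizontal axis) of 18 further YAP-TEAD targets in HUWE1-CS against each control line, with the 95% interval of the fit as a line, filled where the FDR is at most 0.01 and open otherwise. In the comparison with HUWE1-P, 8 filled points lie below 0 and 2 above it, GADD45A and AREG.

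Actin cytoskeleton genes and targets of SRF and its MRTF cofactors, a second group of genes that responds to cell tension and shares targets with YAP1, were examined for comparison. Of 17 listed, also with earlier results of these data known, 16 were measured. Against HUWE1-P, 7 fell and 2 rose, and against HUWE1-WT, 8 fell and 1 rose (56.2% called in each, beside 17.0% and 15.5% of all genes). Over the alternative fits at an FDR of 0.01, 8 to 10 were called against HUWE1-P and 7 to 9 against HUWE1-WT. The median log2 fold change was -0.39 and -0.40. FLNA, an actin crosslinker, fell by 0.66 (adjusted p = 6.89e-17) and 0.56 (adjusted p = 1.22e-13), ACTB by 0.57 (adjusted p = 3.83e-16) and 0.59 (adjusted p = 5.37e-17), and VCL, a focal adhesion protein, by 0.67 (adjusted p = 1.62e-10) and 0.68 (adjusted p = 1.85e-10). SRF itself had log2 fold changes of 0.01 (adjusted p = 0.956) and -0.00 (adjusted p = 0.987).

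FHL2, a LIM protein, rose by 0.76 (adjusted p = 1.54e-07) and 0.72 (adjusted p = 7.69e-07). ACTA2, smooth muscle actin, had 1, 6 and 4 counts in HUWE1-P, 8, 10 and 7 in HUWE1-WT and 15, 15 and 13 in HUWE1-CS. It rose against HUWE1-P (adjusted p = 3.84e-04) and had a log2 fold change of 0.80 against HUWE1-WT that did not pass (adjusted p = 0.121).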

How the data were processed

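RNA-seq was analysed in 3 libraries of each of the 3 HCT116 lines. Per the labels and the study's methods, the authors trimmed single-end reads with Skewer and mapped them to hg19 with STAR 2.5.4, and they deposited unnormalized counts per gene. The counting tool, its annotation and its use of strand are not given in the sources used here. The 3 other tables, which hold the authors' own comparisons (log2 fold changes, log CPM, F statistics, p-values and FDR), were not used. Groups were taken from the sample labels.

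The 11350 genes, including 147 rows without a symbol that stayed in the fit by their identifier, were analysed with edgeR 4.0.16 in R 4.3.3. The study used edgeR 3.26.8 and called genes at a p-value and an FDR of at most 0.01. Chosen here were TMM normalization, the legacy quasi-likelihood estimator, 1 fit of all 9 libraries and a Benjamini-Hochberg FDR of at most 0.01. No count minimum was applied, since the smallest total of a gene was 41 counts. The common dispersion corresponded to a biological coefficient of variation of 4.77%. The fit had 89.5 prior and 6 residual degrees of freedom, so standard errors and p-values rest mostly on the trend over all genes. CPM are TMM-normalized, and levels per kb use the MANE transcripts, where annotated, of GENCODE v44 on GRCh37. Intervals are those of the fit, and shares of counts and floors cover counting error only. The procedure was also run on simulated counts with known fold changes, as a check of the code. Those counts took their spread from the fit and held no variation between clones, so they lend no support to a call. Libraries of a line differed by more than sampling noise (chi-square per degree of freedom 1.16 to 1.65), so none was counted as a duplicate. Same-numbered libraries did not deviate together (0 of 9 pairs with r over 0.1), and no pairing was used.

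The genes, lists and tests were chosen with earlier results of these data known. Named were the measured genes of the set, HUWE1, TEAD2, TEAD3, LATS1, NF2 and VGLL4, and from each list up to 3 genes per direction with the smallest p among those called against HUWE1-P. For CCN1 and YAP1, the 3 genes of nearest profile were also named. SRF, the measured cell type markers and the genes said so in the text were named outside this rule, after their values were seen. A gene of the cofactor list that this rule would name is not reported here. Alternatives were RLE size factors, total counts, DESeq2 1.42.0, limma-voom 3.58.1, the newer edgeR estimator, a robust fit, at least 10 counts in every library, each pair of lines alone, a replicate block, leaving out each library, an FDR of 0.05, a 1 log2 unit minimum on the size of the change, and removal of a trend with transcript length (11051 genes).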

Additional observations from a re-analysis of the deposited data

How the results depend on the processing

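The calls of CCN1 and AMOTL2 held in both HUWE1-CS comparisons under every alternative run, with log2 fold changes against HUWE1-P of -1.99 to -1.71 and -0.80 to -0.70, except that AMOTL2 is left out by a minimum absolute log2 fold change of 1. With that minimum, 1 of the 9 genes was called against HUWE1-P and 1 against HUWE1-WT, and with an FDR of 0.05, 5 were called against HUWE1-WT. Against HUWE1-P, an FDR of 0.05 added AMOTL1 (adjusted p = 0.0320) to the called genes. Leaving out each library gave 3 to 4 called genes against HUWE1-P, 3 to 4 against HUWE1-WT and 0 to 0 between the controls. Replicate numbers mark no stated pairing, and with the replicate block 4, 3 and 0 genes were called, as without it. DESeq2 called 1088, 998 and 0 of all genes in the 3 comparisons, where edgeR called 1934, 1759 and 7, and between the control lines the other fits called 1 to 19 genes.

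Small values changed sign. WWTR1 against HUWE1-WT was -0.0011 with total counts and -0.025 to 0.087 when a library was left out. Between HUWE1-WT and HUWE1-P, leaving out a library gave -0.114 to 0.020 for TEAD4, -0.086 to 0.188 for CCN1, -0.087 to 0.113 for AMOTL1 and -0.046 to 0.096 for AMOTL2, and removing the length trend gave -0.00984 for CCN1 and 0.051 for AMOTL1. LATS1 against HUWE1-P was -0.018 with total counts, -0.017 with limma-voom, -0.00200 with the replicate block and -0.117 to 0.196 when a library was left out, and against HUWE1-WT it was -0.039 to 0.374. TEAD3 against HUWE1-P was 0.00392 with RLE size factors, 0.00177 with DESeq2, 0.00256 with the lines compared alone, 0.00047 with the replicate block and -0.125 to 0.104 when a library was left out. VGLL4 ranged from -0.051 to 0.128 against HUWE1-P and from -0.026 to 0.168 against HUWE1-WT when a library was left out. The causes were not tested. In the control lines CCN1 and LATS2 had 36 to 59 counts per library, and the 95% interval of HUWE1-WT against HUWE1-P was -0.36 to 0.37 for CCN1 and -0.66 to 0.11 for LATS2.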

Other observations

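Genes whose profile over the 9 libraries lay nearest to that of CCN1 were PALLD, an actin-associated scaffold, PCDH7, a protocadherin, and MRC2, a collagen-binding receptor. The root mean square difference from CCN1, on log2 CPM relative to the HUWE1-P mean, was 0.196, 0.197 and 0.200, among 9984 genes. The log2 fold changes against HUWE1-P were -1.91 for PALLD, -1.65 for PCDH7 and -2.20 for MRC2. As these genes were picked for nearness to CCN1 in the same libraries, values close to that of CCN1 follow from the choice. For YAP1, the nearest profiles were those of MTX2, TRAPPC10 and DNAAF2, with differences of 0.0549, 0.0598 and 0.0604.

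Among the 6 colon epithelial markers analysed, the adhesion genes EPCAM and CDH1 rose against HUWE1-P, by 0.28 (adjusted p = 4.97e-04) and 0.53 (adjusted p = 1.13e-04) on the log2 scale, and the keratins KRT8 and KRT18 fell by 0.32 (adjusted p = 6.04e-07) and 0.30 (adjusted p = 8.04e-05). All 4 were called in the same direction against HUWE1-WT. KRT19 and CDX2 had log2 fold changes of 0.15 (adjusted p = 0.0486) and 0.44 (adjusted p = 0.0748) against HUWE1-P. COL1A1, a fibroblast collagen gene, fell by 0.96 against HUWE1-P (adjusted p = 9.01e-04) and by 0.88 against HUWE1-WT (adjusted p = 0.00346).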
